A study of Rattus norvegicus with 8 samples.

Results

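The genes described here encode the molecules with which leukocytes attach to the vessel wall: Vcam1, Icam1, Sele, Selp, Selplg, Itgb2, Itgam, Itgal and Itga4. They were found as the rows of the deposited gene count table whose symbol equals one of these names, which gave 9 of the 37209 genes listed. The table came from RNA sequencing of carotid arteries of male Sprague-Dawley rats that weighed 400 g on average. In the injured group (n = 4) the left common carotid had been denuded with a balloon catheter, and in the control group (n = 4) the undamaged right carotid served as the self-control; both were taken 2 weeks after the procedure. The controls were thus arteries of operated rats and not of untouched ones, and the labels do not say whether a library held a single artery or pooled ones, nor which arteries shared a rat. Below, the word artery stands for a single library.

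Leukocytes leave the blood in steps. Selectins on activated endothelium and platelets catch passing leukocytes through sugar-bearing ligands, chemokines then switch leukocyte integrins to their binding form, and the integrins hold the cell to immunoglobulin-type molecules on the vessel wall. In an artery such molecules are known from endothelium, from activated smooth muscle and from the leukocytes themselves, and the whole-wall libraries add all of these together. In such bulk samples fewer cells of a type and less RNA per cell cannot be told apart.

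The libraries held 11459632 to 16658089 counts each. The level of a gene is given in CPM, its count relative to the library total after scaling by trimmed mean of M values (TMM) factors, and a gene was called changed at an adjusted p below 0.05 in edgeR's quasi-likelihood test together with a fold change above 2. At this depth the 3 counts that a count of 0 allows correspond to 0.167 to 0.246 CPM, a limit that covers counting error only. One protocol label names prefrontal cortex, whereas the others name carotid artery. Smooth muscle markers summed to 17079 to 50321 CPM in the controls and 10449 to 16534 CPM in the injured arteries, and brain neuron markers to 0.97 to 2.87 CPM and 0.58 to 2.23 CPM. The lowest control sum of the smooth muscle markers was that of control 4, against 37126 CPM or more in the other controls. Sympathetic neuron markers reached 6803 CPM in control 4 and 1028 CPM in injured 3 against 12.5 to 88.7 CPM in the other 6 libraries, so values without control 4, or without both of these libraries, are given beside the results that rest on them.

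After injury, the leukocyte-side genes were higher by a wide margin and the vascular-side genes less uniformly. Of the 9 genes, 6 were called higher and 0 lower: Selplg, Itgb2, Itgam, Itgal and Itga4, which are chiefly leukocyte genes, and Sele, an endothelial gene. The median log2 fold change of the 9 was 2.89, against -0.06 over all 14359 genes tested. Across all tested genes, 10.9% were called in either direction and 8.31% were called higher. In 7 of the 9 genes every injured artery lay above every control artery, an arrangement seen in 14.3% of all genes tested. Icam1 and Selp were the genes in which the groups overlapped, and Vcam1 did not overlap but was not called.

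**Figure D1:**
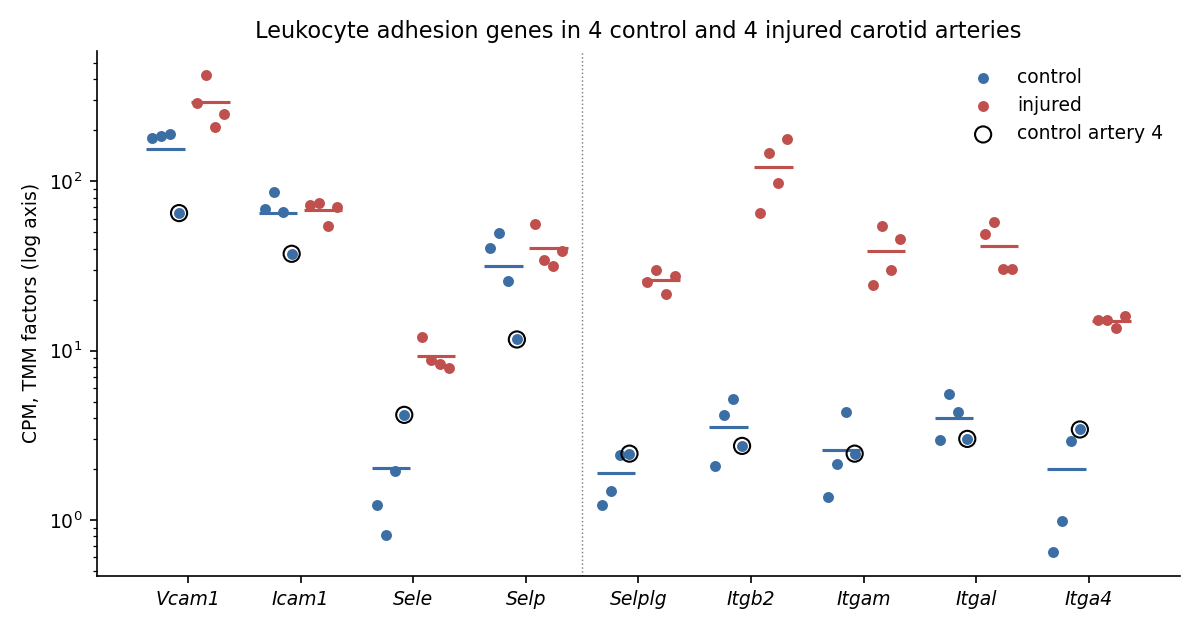
Level of each of the 9 genes in every artery, in CPM on a log axis, with 1 point per artery, a bar at the group mean and control 4 ringed; the dotted line parts the vascular-side genes (left) from the leukocyte-side genes (right). The injured arteries sit above all control arteries for 7 genes, whereas for Icam1 and Selp the groups share their range.

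Itgb2, the shared beta chain of the leukocyte integrins LFA-1 and Mac-1, changed most among the 9 genes. Its level was 2.09, 4.18, 5.19 and 2.73 CPM in controls 1 to 4 and 65.1, 145.8, 98.2 and 176.5 CPM in injured 1 to 4. Every injured artery was far above every control, and the injured arteries also differed widely from each other. The mean was 3.55 ± 1.40 CPM (SD, n = 4) in the controls and 121 ± 49.5 CPM (SD, n = 4) in the injured arteries, a fold change of 34.1 (95% interval 17.1 to 68.0, adjusted p = 0.000391 in edgeR's quasi-likelihood test). On the log2 scale this was 5.09 ± 0.43 (SE), which ranked 70 among all tested genes.

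Itgam, the alpha chain of Mac-1 that is abundant on monocytes, macrophages and neutrophils, stood at 1.37, 2.13, 4.36 and 2.46 CPM in controls 1 to 4 and at 24.5, 54.0, 30.02 and 45.5 CPM in injured 1 to 4. The lowest injured artery was well above the highest control. The fold change was 14.8 (95% interval 7.58 to 29.0, adjusted p = 0.000936 by edgeR). Itgal, the alpha chain of LFA-1 carried by lymphocytes and other leukocytes, was 2.95, 5.57, 4.36 and 3.01 CPM in controls 1 to 4 and 48.8, 57.2, 30.3 and 30.4 CPM in injured 1 to 4. Here too the groups were separate, and injured 3 and 4 were the lower injured arteries. The fold change of Itgal was 10.5 (95% interval 6.31 to 17.4, adjusted p = 0.000544 by edgeR).

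Itga4, the alpha chain that pairs with Itgb1 to bind VCAM-1 and fibronectin, was the tightest of the integrin genes in the injured arteries. Its level was 0.65, 0.98, 2.91 and 3.42 CPM in controls 1 to 4 and 15.2, 15.2, 13.5 and 16.0 CPM in injured 1 to 4. Controls 3 and 4 were above controls 1 and 2, yet all 4 stayed far under the injured arteries. The fold change was 7.44 (95% interval 3.29 to 16.8, adjusted p = 0.00724 by edgeR). With any 1 library left out, control 4 included, the log2 fold change of Itga4 was 2.60 to 3.29 and it stayed called. Its partner Itgb1 was 1436.7 CPM in the controls and 898.4 CPM in the injured arteries and was not called (log2 fold change -0.68, edgeR adjusted p = 0.0731), while Itgb7, which pairs with Itga4 in the gut-homing integrin, rose by 2.93 on the log2 scale (edgeR adjusted p = 0.00196).

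Selplg, which encodes the P-selectin ligand PSGL-1 of leukocytes, had the narrowest interval of the called genes on the log2 scale. Its level was 1.22, 1.48, 2.42 and 2.46 CPM in controls 1 to 4 and 25.3, 29.7, 21.7 and 27.7 CPM in injured 1 to 4. The groups did not overlap, and the injured arteries lay within a narrow band. The fold change was 13.6 (95% interval 8.76 to 21.2, adjusted p = 0.000226 by edgeR).

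Of the vascular selectins, Sele was called higher and Selp was not. Sele, the endothelial selectin that is made on activation, was low throughout, at 1.22, 0.82, 1.94 and 4.17 CPM in controls 1 to 4 and 12, 8.83, 8.37 and 7.84 CPM in injured 1 to 4. Control 4 was the highest control and still below every injured artery. The fold change was 4.49 (95% interval 2.07 to 9.72, adjusted p = 0.019 by edgeR). The Sele call was lost when 1 of 4 libraries was left out, namely control 1, control 3, injured 1 or injured 2, with edgeR adjusted p between 0.0514 and 0.059, and without control 4 its log2 fold change was 2.79 and it stayed called. Selp, the selectin stored in endothelium and platelets, was 40.1, 49.2, 25.8 and 11.6 CPM in controls 1 to 4 and 55.7, 34.3, 31.8 and 38.8 CPM in injured 1 to 4. These ranges overlapped, and the interval of its fold change (0.666 to 2.42, edgeR adjusted p = 0.609) holds both a decrease and a doubling. Control 4 was its lowest control. The log2 fold change of Selp was 0.34 with all libraries, 0.06 without control 4 and 0.17 without control 4 and injured 3.

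Of the immunoglobulin-type adhesion molecules, Vcam1 was higher in every injured artery without being called. Its level was 179.6, 184.0, 190.5 and 64.8 CPM in controls 1 to 4 and 288.2, 425.9, 209.8 and 250.1 CPM in injured 1 to 4. Control 4 was far below the other controls, and injured 3 was close above them. Vcam1, which binds the alpha-4 integrins, had a fold change of 1.90 (95% interval 1.07 to 3.37, edgeR adjusted p = 0.122). The exact two-sided permutation test of its log2 CPM gave p = 0.0286, the smallest value that 4 against 4 arteries can give. That value is unadjusted, follows from the lack of overlap alone, and was the same for all 7 genes without overlap. Leaving out control 4 brought the log2 fold change from 0.92 to 0.67 (edgeR adjusted p = 0.0558), and leaving out control 4 and injured 3 gave 0.80 (edgeR adjusted p = 0.012), a change below 2-fold in each case.

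Icam1, the ligand of LFA-1 and Mac-1, was 68.9, 86.2, 65.6 and 37.3 CPM in controls 1 to 4 and 72.5, 74.7, 54.0 and 70.7 CPM in injured 1 to 4. The groups overlapped throughout, with control 2 highest and control 4 lowest. The fold change of 1.05 had a 95% interval of 0.722 to 1.54 (edgeR adjusted p = 0.857), and without control 4 the log2 fold change was -0.12.

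**Figure D2:**
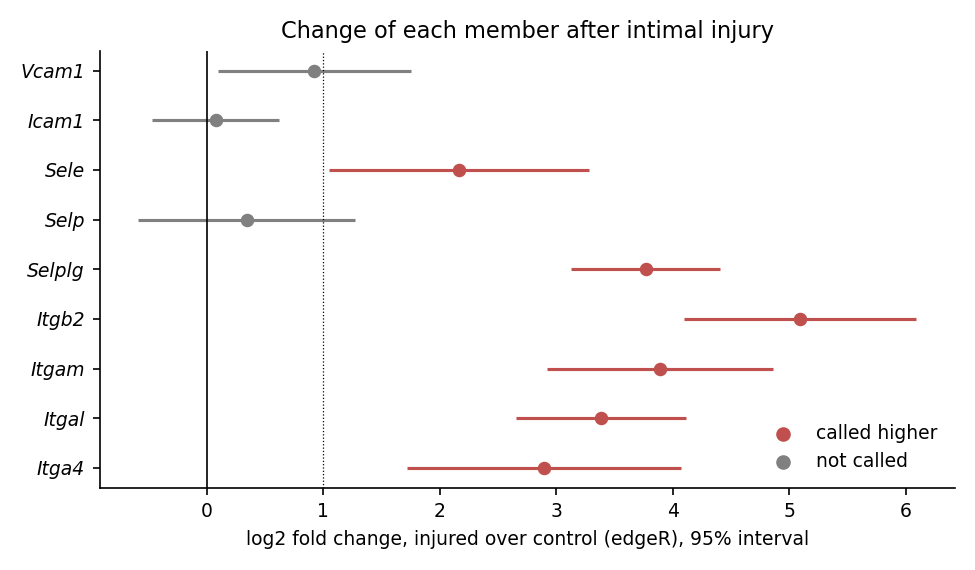
Log2 fold change of each gene, injured over control, from edgeR, with its 95% interval as a bar and a dotted line at a 2-fold change. The 6 called genes lie above the dotted line with their whole interval, and Icam1 and Selp have intervals that cross 0.

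The genes can be set against cell type markers in the same libraries. Macrophage markers, of which 8 of 9 were called higher and 0 lower, summed to 194 to 291 CPM in the controls and 1721 to 2575 CPM in the injured arteries. Pan-leukocyte markers (6 of 7 higher, 0 lower) summed to 155 to 181 CPM and 361 to 478 CPM, and Ptprc, the CD45 gene of all nucleated blood cells, rose by 3.36 on the log2 scale (edgeR adjusted p = 0.000281). T cell markers (2 of 7 higher) summed to 19.5 to 41.3 CPM and 128 to 167 CPM, mostly from Cd4, which macrophages of the rat also carry and which was 23.4 CPM in the controls and 130.9 CPM in the injured arteries. The Cd3 chains, Cd8a and Lck were not called, and Cd2, the other gene called, was lost without control 3 or injured 1, 2 or 4. Neutrophil markers (2 of 3 tested higher) summed to 2.81 to 6.56 CPM and 8.25 to 25.8 CPM. Of these calls Csf3r held with any 1 library left out, S100a9 was lost in 7 of the 8 such fits (all but that without injured 3), and Mpo, which did not pass the filter, was 2.98 CPM in the controls and 0.27 CPM in the injured arteries. B cell markers, of which 0 passed the filter on low counts, summed to at most 0.346 CPM and 2.45 CPM. Leukocyte markers thus moved with the 5 leukocyte-side genes, and their part in those results was not tested.

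Levels of the leukocyte-side genes relative to leukocyte markers are given as a description, and they depended on the marker used. The difference in log2 CPM from the mean of the pan-leukocyte markers was larger in the injured arteries by 3.00 for Itgb2, 1.85 for Itgam, 1.71 for Selplg, 1.31 for Itgal and 1.07 for Itga4. The first 4 of these 5 did not overlap between groups, against 1.91% of all genes, and without control 4 Itga4 did not overlap either, with a difference of 1.45. No share over all genes was worked out without control 4, where fewer controls make non-overlap easier. The pan-leukocyte list holds Il2rg, an X-linked gene listed at 0 in all 8 libraries, and Cd48, which was 102.1 and 97.0 CPM in the groups, so the comparison was repeated against Ptprc alone. Against Ptprc, Itgb2 was larger by 1.70, Itgam by 0.54, Selplg by 0.41 and Itgal by 0.01, and Itga4 was -0.23. Only Itgb2 of these 5 was then without overlap, against 0.244% of all genes.

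The vascular-side genes can be set against endothelial markers, of which 4 of 10 were called higher and 1 lower. Their sum was 939 to 2458 CPM in the controls and 925 to 1318 CPM in the injured arteries, where Cdh5 and Kdr were higher and Vwf was lower. These calls fell to 2 higher and 1 lower without control 1 and to 2 higher and 0 lower without injured 4, and the call of Vwf was lost without injured 2 or injured 4. Against the mean of these markers, the difference was 1.87 for Sele, 0.54 for Vcam1, 0.04 for Selp and -0.33 for Icam1, with overlap in all 4 and non-overlap in 22.8% of all genes. Without control 4 the differences were 2.39, 0.27, -0.26 and -0.46 in the same order, with every injured artery above the controls for Sele and below them for Icam1. The share of all genes without overlap was not worked out without control 4, and fewer controls make non-overlap easier to reach. Against Pecam1 alone, which was 176.6 CPM in the controls and 130.7 CPM in the injured arteries and was not called, the differences with all arteries were 2.74, 1.41, 0.91 and 0.54 in the same order. None of the 4 then overlapped, an arrangement that 24.6% of all genes showed. Smooth muscle markers, another possible source of Vcam1 RNA, had 4 of 7 genes called lower and 0 higher. With 1 library left out the number called lower was 0 without injured 4, 1 without control 1, 2 or 3 or injured 2 or 3, 2 without injured 1 and 6 without control 4.

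Balance between some genes of a class also differed between the groups. The 5 ratios below were chosen after the values were seen, so no test is given, and no share over all genes was worked out. Within each artery, the log2 ratio of Itgb2 to Itgam was 0.47 ± 0.35 (SD, n = 4) in the controls and 1.62 ± 0.26 (SD, n = 4) in the injured arteries, without overlap. The ratio of Itgb2 to Itgal was -0.19 ± 0.33 and 1.497 ± 0.88, also without overlap, so the gap between the groups was wider for Itgb2 than for Itgam or Itgal. This does not hold for every alpha partner of Itgb2. Itgax, not among the ratios, rose by 5.42 on the log2 scale against 5.09 for Itgb2, and Itgad by 4.24. The ratio of Itgam to Itgal differed by 0.53 and overlapped. The ratio of Vcam1 to Icam1 was 1.20 ± 0.33 in the controls and 2.07 ± 0.30 in the injured arteries, without overlap, and the difference of 0.87 was 0.73 without control 4. The ratio of Sele to Selp differed by 1.83 with overlap and by 2.65 without control 4, when the groups no longer overlapped.

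**Figure D3:**
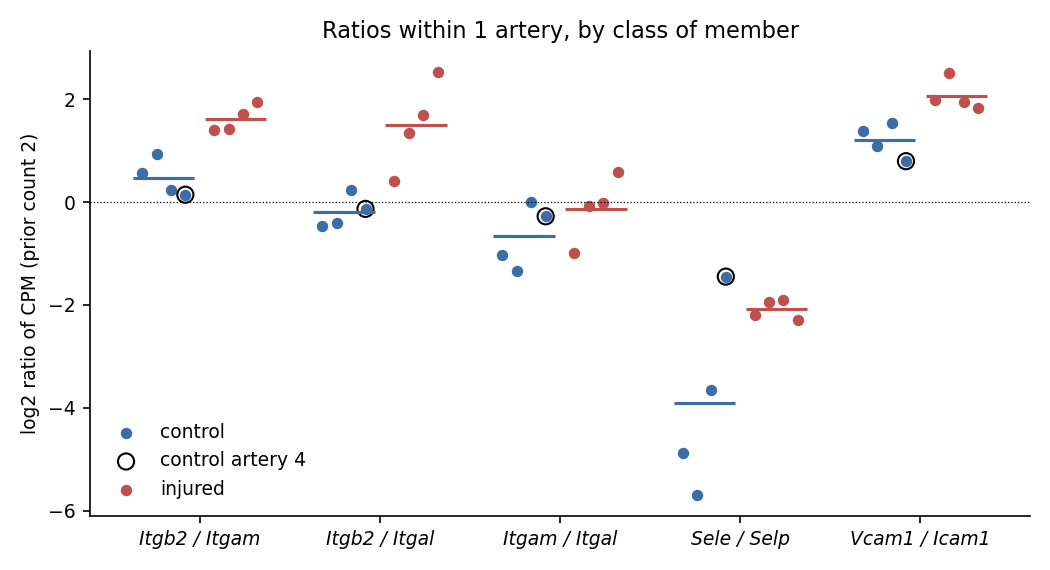
Log2 ratio of 5 gene pairs within each artery, with 1 point per artery, a bar at the group mean and control 4 ringed. The injured arteries lie above all controls for Itgb2 over Itgam, Itgb2 over Itgal and Vcam1 over Icam1, and overlap the controls for Itgam over Itgal and Sele over Selp.

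Promoter sequence was available from RefSeq (GRCr8) for 5 of the 9 genes: Vcam1, Icam1, Sele, Itgam and Itga4. The windows run from 250 bases before to 50 bases after the annotated start, and 6 short motifs were searched on both strands. Of these windows, 93 bases lie before the annotated gene for Icam1 and 0 for Sele and Itga4. Their remaining bases lie inside the gene. The bases before the gene are shown for Vcam1, a vascular-side gene, and for Itgam, a leukocyte-side gene, with the matches in capitals. For Vcam1 this is chr2:206742784-206743033 on the minus strand, and for Itgam chr1:192089342-192089495 on the plus strand, whose later bases lie inside the annotated gene and are not shown. Capitals mark, in Vcam1, the kappa B, TATA and interferon response motifs, and, in Itgam, the GC boxes and the PU.1 box.
Vcam1: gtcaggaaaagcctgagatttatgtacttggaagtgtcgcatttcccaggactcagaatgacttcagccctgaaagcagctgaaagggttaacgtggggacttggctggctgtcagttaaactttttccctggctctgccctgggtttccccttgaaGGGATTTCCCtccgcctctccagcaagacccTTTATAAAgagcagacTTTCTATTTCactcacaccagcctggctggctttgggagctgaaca
Itgam: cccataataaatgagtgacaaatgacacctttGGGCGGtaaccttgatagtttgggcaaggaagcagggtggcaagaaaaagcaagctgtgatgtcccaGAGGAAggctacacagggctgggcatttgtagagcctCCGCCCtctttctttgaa

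The kappa B type motif, GGGA and CC with any 4 bases between them, was found in Vcam1, 93 bases upstream of the start, where the pattern fits both strands, and in 19.3% of all 33469 windows. The interferon response type motif, a pair of GAAA with any 2 bases between them, was found in Vcam1 (46 bases upstream, minus strand) and in 3.92% of windows. GAGGAA, the PU.1 box, was found in Itgam at 151 and 39 bases upstream, the latter on the minus strand and outside the stretch shown, and in 27.6% of windows. The GC box, GGGCGG, was found in Itgam and Icam1 and in 33.1% of windows, TATAAA in Vcam1 and Icam1 and in 14.2% of windows, and the AP-1 type motif, TGANTCA, in 0 of the 5 genes and 7.33% of windows. In Icam1 the TATAAA match, 53 bases upstream of the start, and the GC box 82 bases upstream lie inside the annotated gene. Each match describes letters in a window only.

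Other genes of the adhesion pathway were taken from 4 lists of 56 genes, of which 52 were tested, and 15 were called higher and 3 lower. Over all 14359 genes tested, 1193 (8.31%) were called higher and 369 lower. The lists were written with earlier results of these data known, so their counts and shares are a description only. Among the other leukocyte adhesion receptors, 6 of 11 were higher and 1 was lower. Itgax, the alpha chain of p150,95 and a partner of Itgb2, was 0.81 CPM in the controls and 35.3 CPM in the injured arteries (log2 fold change 5.42, edgeR adjusted p = 0.000162). Itgad, the remaining alpha partner of Itgb2, rose by 4.24, from at most 2 counts in any control to at least 20 counts in every injured artery. Spn, which encodes CD43, rose by 2.56 and Cd226 by 2.23 on the same scale, the latter called under 10 of 17 alternatives and lost without control 1, control 3 or injured 1, 2 or 4. Itga9, an integrin alpha chain also found in muscle, fell by 1.30 with overlapping groups.

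Among 17 integrin activation genes, which act on integrins from inside the cell, 7 were higher and 1 was lower, with a median log2 fold change of 1.34. Fermt3, the kindlin of blood cells, rose by 2.57 on the log2 scale (edgeR adjusted p = 0.000226). The kinases Syk and Fgr rose by 3.11 and 2.29, and the adaptors Fyb, Lcp2 and Apbb1ip by 3.52, 1.65 and 1.34. Tln1, the talin of most cells, was -0.49 and not called (edgeR adjusted p = 0.202), and Rasgrp2, the activator of Rap1 in platelets and other blood cells, fell by 1.15 with overlapping groups.

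Among 11 enzymes that build selectin ligands, Fut4 rose by 1.29, St3gal6 fell by 1.11 and 9 were not called. Among 13 other vascular adhesion and junction genes, Cdh5, the cadherin of endothelial junctions, rose by 1.06 (edgeR adjusted p = 0.0063) and 12 were not called, with a median log2 fold change of -0.29. The shares called higher, 9.09% of the enzymes and 7.69% of these vascular genes, were near the 8.31% of all genes. The call of Cdh5 was lost without control 1, control 4 (log2 fold change 0.98) or injured 4, and against a fold change of 2. With library totals in place of TMM factors the median of all genes rose by 0.17 and the 18 calls of these lists were all higher, so the 3 calls lower depend on the scaling, although these genes kept their sign under all 18 alternatives. Of these, Itga9 and Rasgrp2 were each called under 6 and St3gal6 under 16 of the 18, and Itga9 and Rasgrp2 were lost when any 1 library other than control 4 was left out.

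**Figure D4:**
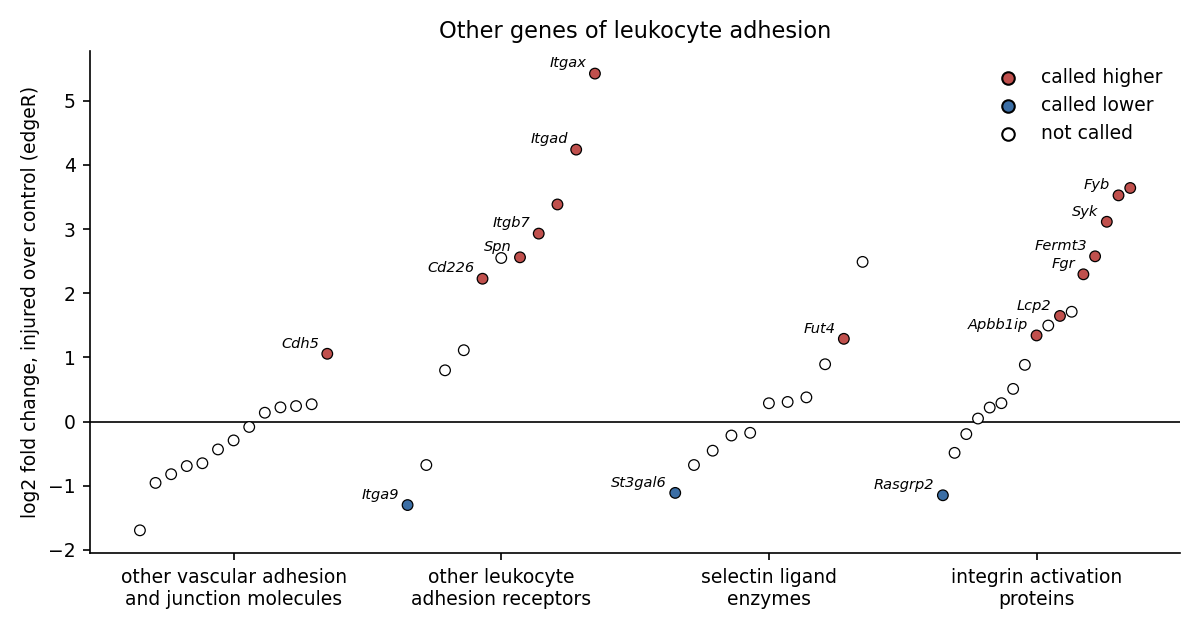
Log2 fold change, injured over control, of the tested genes in the 4 pathway lists, with 1 point per gene and called genes marked, most of them by name. Calls higher number 6 of 11 leukocyte receptors, 7 of 17 integrin activation proteins, 1 of 13 vascular genes and 1 of 11 enzymes, against 8.31% of all genes tested. The lists were written with earlier results of these data known.

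Over the 8 arteries, the genes most like each of the 9 in log2 CPM, by Pearson's r among 12891 genes, were Ncf4 for Selplg (r = 0.9998), Pik3r5 for Itgb2 (r = 0.998), Prss35 for Itgam (r = 0.997), Spn for Itgal (r = 0.996) and RT1-Da for Itga4 (r = 0.993). The vascular-side matches were Sdc2 for Vcam1 (r = 0.993), Klf12 for Icam1 (r = 0.976), Unc13d for Sele (r = 0.989) and Rassf1 for Selp (r = 0.990). Next in order came Laptm5 for Selplg, Lasp1 for Itgb2, LOC103691871 for Itgam, Sirpa for Itgal, Fcgr2b for Itga4, Rab31 for Vcam1, Mettl9 for Icam1, Pou2f2 for Sele and Acsf2 for Selp. Many genes were nearly as close. Those with r above 0.95 numbered 411 for Selplg, 433 for Itgb2, 374 for Itgam, 367 for Itgal and 127 for Itga4. For Vcam1, Icam1, Sele and Selp they numbered 118, 38, 54 and 11. All of these points share the injury contrast. With group means removed, the deviations of Icam1 and Selp had r = 0.91 and those of Vcam1 and Icam1 r = 0.90 over 8 arteries, which fell to 0.66 and 0.59 without control 4, whereas Selplg with Itga4 gave 0.95 and 0.93, and Itgb2 with Itgam 0.87 and 0.90. These pairs are among the highest. Other pairs ran the opposite way: Icam1 with Sele gave -0.83 and -0.36, Sele with Selp -0.80 and -0.33, and Selp with Itga4 -0.77 and -0.58.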

How the data were processed

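Whole-transcriptome RNA sequencing gave 4 libraries of injured and 4 of control carotid arteries, taken 2 weeks after injury. The table the authors deposited holds whole-number counts for each gene, without normalization. The submitters' processing notes name HISAT2 (2.0.4), while the counter, genome build, annotation and strand setting are not given in the sources used here. The counts were tested here as deposited. The 9 genes and all lists were chosen with earlier results of these data known.

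Counts were analysed in R 4.3.3 with edgeR 4.0.16 (limma 3.58.1). The filterByExpr function kept 14359 of 37209 genes, TMM factors were used, and the quasi-likelihood test compared the groups over all genes with Benjamini-Hochberg adjustment. A call needed an adjusted p below 0.05 and a fold change above 2, which are the thresholds of the study. Log2 CPM used a prior count of 2. Single values were compared by an exact two-sided permutation test over 70 relabellings. Intervals are at 95%. The 4 pathway lists and 16 marker lists held 158 entries, of which 155 matched by symbol and 3 by synonym (Fyb, Emr1, Hba1). Pecam1 and Cdh5 each stand in both a pathway list and a marker list. Genes named are the 9, genes called in the pathway and marker lists, and for each of the 9 the 2 genes with the highest Pearson correlation of log2 CPM among those with an average log2 CPM above 1. Itgb1, Tln1, Pecam1, Cd48, Il2rg, Mpo, Cd8a, Lck and the Cd3 chains were named after their values were seen. The study's methods state at least 4 biological replicates for each experiment, but nothing in the labels says that the arteries came from separate rats. The p-values may therefore measure only the spread between these arteries. The steps were tested on simulated data. Alternatives were other scaling factors, other filters and thresholds, a replicate block, DESeq2 1.42.0, and leaving out libraries. Plots were drawn with matplotlib 3.10.9, and the permutation tests used scipy 1.17.1. A few genes of the lists are counted but not reported by name here.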

Additional observations from a re-analysis of the deposited data

Results flagged for a closer look

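Of 24 groups of 4 arteries checked for a value far from the rest, 2 held one, and chance alone would give about 1.2. Vcam1 in control 4 was 64.8 CPM against 179.6 CPM in the nearest control, a gap of 0.913 of the whole range of the controls. The mean log2 CPM of the sympathetic neuron markers in control 4 was 8.78 against 0.21 in the nearest control, a gap of 0.902 of the range. Control 4 also differed over all tested genes. Its log2 CPM correlated at 0.830 to 0.852 with the other controls, which correlated at 0.976 to 0.978 with each other, and at 0.917 with injured 3.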

How the results depend on the processing

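The 9 genes gave 6 calls under most alternatives, and 5 with at least 10 counts in every sample (where Itga4 was not tested), against a fold change of 2, and when some libraries were left out (range 5 to 6). The calls of Selplg, Itgb2, Itgam and Itgal held under all 18 alternatives, and that of Itga4 under the 17 that tested it. The alternative with the adjusted p alone could not lose a call, as it only dropped the fold change threshold. Sele was not called against a fold change of 2 (log2 fold change 2.17, adjusted p = 0.129 by edgeR), and leaving out 1 library gave 1.90 to 2.79. Icam1 turned to -0.12 without control 4 and to -0.017 without control 4 and injured 3, an alternative chosen after seeing the data, and was -0.12 to 0.24 with 1 library left out. Vcam1 was not called under any of the 18, with log2 fold changes of 0.67 to 1.11. Against the single marker Ptprc or Pecam1, chosen after seeing the data, the differences from markers were 1.41 for Vcam1, 0.54 for Icam1, 0.91 for Selp, 0.41 for Selplg, 1.70 for Itgb2, 0.54 for Itgam, 0.0097 for Itgal and -0.23 for Itga4; the cause was not tested.

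Over all genes, 1562 were called, and 1007 with at least 10 counts in every sample, 2468 at the adjusted p alone, 661 against a fold change of 2, 2473 without control 4 and injured 3, and 1142 to 2398 with 1 library left out, the highest without control 4. The pathway lists gave 18 calls, 10 against a fold change of 2, and 14 to 22 with 1 library left out.

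With the replicate number as a block, 1187 genes were called over all genes, 6 of the 9 and 16 of the pathway lists, and calls among smooth muscle markers went from 4 to 1 and among T cell markers from 2 to 1. Deviations of same-numbered arteries correlated at 0.301, 0.450, -0.520 and -0.416. The negative values belong to replicates 3 and 4, which hold injured 3 and control 4, the libraries with sympathetic neuron signal. These values therefore cannot decide whether the numbers are pairs, and the main fit was unpaired. With the block Sele stayed called, with a log2 fold change of 2.40 (edgeR adjusted p = 0.0496). The controls held 9 to 75 counts per library for each leukocyte-side gene, which limits the precision of their folds.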

Other observations

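Of 606 X-linked protein-coding genes, 592 (97.7%) were listed at 0 in all 8 libraries, against 1541 of 16016 autosomal ones (9.62%, with single autosomes between 4.61% and 15.1%). C1galt1c1, Was, Il2rg and Alas2 from the lists used here are among the X-linked genes at 0, so no level can be given for them. None of the 9 genes lies on the X chromosome. Skeletal muscle markers, of which 4 of 6 were called higher, summed to 81.3 to 252 CPM in the controls and 205 to 794 CPM in the injured arteries.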
